A study of Homo sapiens with 6 samples.

Results

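Keratin-associated proteins, encoded by KRTAP genes, are small proteins that form the matrix around keratin filaments in the hair shaft. Those of the KRTAP1, KRTAP2 and KRTAP3 families are rich in cysteine and are cross-linked to hair keratins by disulphide bonds. Their genes lie side by side on chromosome 17 between keratin genes, and are normally used in the differentiating cortex of the hair follicle, not in the intestine. The 8 genes described here are KRTAP3-1, KRTAP3-2 and KRTAP3-3, KRTAP2-1, KRTAP2-3 and KRTAP2-4, and KRTAP1-1 and KRTAP1-5, a list of genes beside KRTAP3-1 that was drawn up with earlier results of these data known. Of these 8, 7 had values among the 16715 distinct identifiers of the table, and the expression of KRTAP3-3 was not analysed here. The choice rested on the contrast of 5aza with control, so the members' differences are given as a description with no test.

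The cells were HCT116, an established line from a human colorectal carcinoma, and RNA-seq was done on 3 libraries of 5aza-treated and 3 of control cells. The 5aza cells had 5 µM for 48 hours and then fresh medium for 48 hours. The control cells are labelled only as control, with no vehicle named, and both groups are the same line in the same passage range. The labels call the compound 5aza, while the table's columns carry the code DAC, and no label spells out its name. Azanucleosides are cytidine analogues that enter DNA and trap the enzymes that methylate it, which lowers methylation over cell divisions, and the series asks how methylation relates to the transcripts made. Nothing in the labels says whether replicates were separate cultures, so p-values measure only the spread between these libraries, which may be technical.

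Values are FPKM, fragments counted per gene and scaled for gene length and library size, as deposited. The libraries' FPKM sums lay between 577735 and 592051 with 5aza, against 601916 to 628399 in control. No source used here gives the number of reads, so no limit is attached to a value listed at 0. Simple epithelial keratins were abundant in all 6 libraries: KRT8 averaged 1151 FPKM with 5aza and 983 FPKM in control. EPCAM averaged 153 FPKM with 5aza and 166 FPKM in control. Among intestinal genes, CDX2 averaged 9.37 FPKM with 5aza and 9.01 FPKM in control. VIL1, LGALS4 and CDX1 stayed under 0.5 FPKM in every library. A gene was tested with limma on log2(FPKM + 0.1) if it had at least 0.5 FPKM in at least 3 libraries, and is said to have risen or fallen at an adjusted p under 0.05. Among the 12360 genes tested, 23.7% changed, 10.6% upward and 13.1% downward. Rises were 44.7% of these calls, but 75.1% with each library scaled to the same FPKM sum.

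With 5aza, KRTAP3-1 and KRTAP2-3 stood above 20 FPKM, while the other 5 members with values stayed under 0.4 FPKM in every library. KRTAP3-1 (ENSG00000212901, chromosome 17, 41008521 to 41019324, GRCh38, minus strand) had 27.7, 24.8 and 24.7 FPKM in the 5aza libraries, against 0.747, 0.403 and 0.531 FPKM in the control libraries. The lowest 5aza library was thus far above the highest control library. The means were 25.7 ± 1.74 FPKM with 5aza and 0.560 ± 0.174 FPKM in control (SD, n = 3 each), a ratio of 45.9. On the log2(FPKM + 0.1) scale the difference was 5.32 (SE 0.18). It is 4.10 with a pseudocount of 1, so this difference depends on the pseudocount. KRTAP3-1 ranked 7 among the 12360 tested genes by log2 fold change.

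KRTAP2-3 (ENSG00000212724, chromosome 17, 41059240 to 41060114, minus strand), of the KRTAP2 family, had 27.0, 29.7 and 30.8 FPKM in the 5aza libraries, against 4.25, 3.07 and 3.64 FPKM in the control libraries. Unlike KRTAP3-1, it thus had several FPKM in control cells too, and the groups were again far apart. The means were 29.2 ± 1.98 FPKM with 5aza and 3.66 ± 0.591 FPKM in control (SD, n = 3 each), a ratio of 7.98. On the log2 scale the difference was 2.97 (SE 0.11). KRTAP2-3 ranked 85 among the tested genes by log2 fold change. In cultures of this kind a higher value from more cells that use the gene and one from more RNA per cell cannot be told apart.

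The 2 genes were at like levels with 5aza and at unlike levels in control. The ratio of KRTAP2-3 to KRTAP3-1, both per length, was 0.973, 1.20 and 1.25 in the 5aza libraries, against 5.69, 7.61 and 6.87 in the control libraries. With 5aza their ranges overlapped, at 27.0 to 30.8 FPKM for KRTAP2-3 and 24.7 to 27.7 FPKM for KRTAP3-1. In control, the lowest KRTAP2-3 value was several times the highest KRTAP3-1 value. As linear differences of means, 5aza minus control, the genes were alike, at 25.2 FPKM for KRTAP3-1 and 25.5 FPKM for KRTAP2-3. The length by which each gene was scaled is not known here, and reads of KRTAP2-3 may match its copies. Levels of 1 gene against the other are therefore uncertain.

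**Figure D1:**
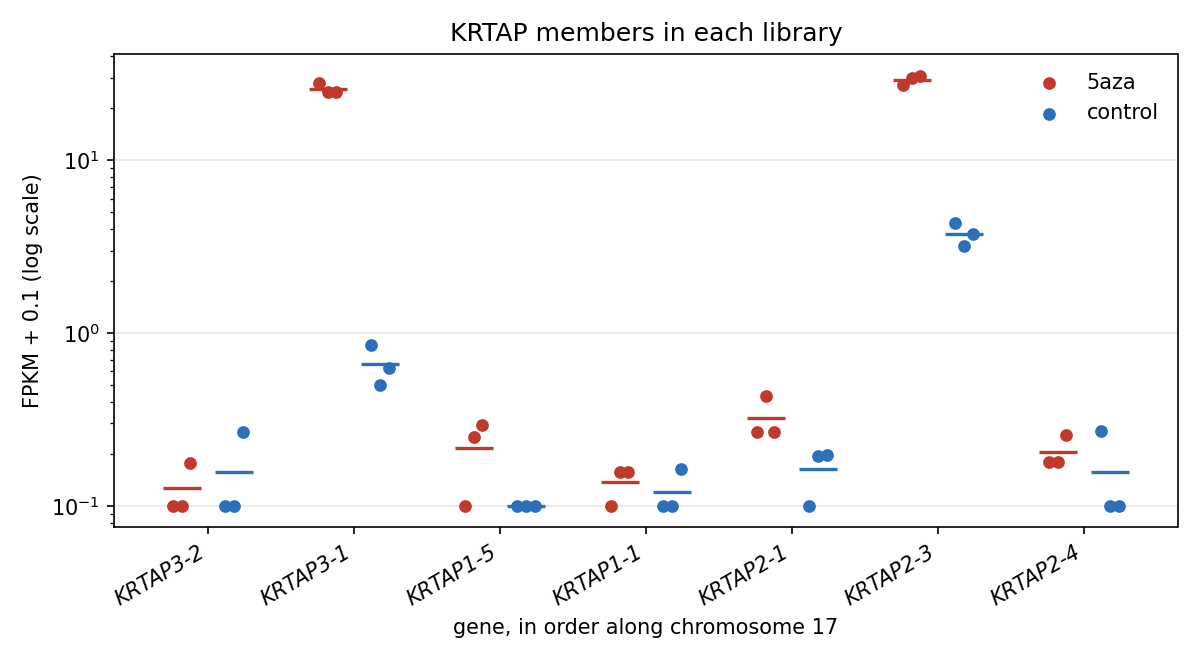
FPKM + 0.1 on a log scale for the 7 members with values, in their order along chromosome 17; each point is a library and each bar the mean of 3 libraries, 5aza left of control. KRTAP3-1 and KRTAP2-3 lie above 20 FPKM with 5aza, against under 5 FPKM in control, and the other 5 members stay under 0.4 FPKM in both groups.

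The remaining members of the KRTAP2 family were near 0. KRTAP2-1 (ENSG00000212725, 41046541 to 41047316) had 0.167, 0.334 and 0.167 FPKM with 5aza, against 0, 0.0954 and 0.0958 FPKM in control. Its lowest 5aza value lay above its highest control value, but all 6 values were under the 0.5 FPKM of the filter. KRTAP2-4 (ENSG00000213417, 41065116 to 41065879) had 0.0796, 0.0797 and 0.158 FPKM with 5aza, against 0.169, 0 and 0 FPKM in control. The highest KRTAP2-4 value was a control library, and the groups overlapped. KRTAP2-3 alone made up 97.5% to 98.1% of the summed FPKM of KRTAP2-1, KRTAP2-2, KRTAP2-3 and KRTAP2-4 with 5aza, against 90.0% to 94.1% in control.

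The KRTAP2 genes are near copies of one another, so their separate values are uncertain. In GENCODE 29 transcripts, 39.7% of the 50-base windows of KRTAP2-3 occur also in KRTAP2-1, KRTAP2-2 or KRTAP2-4, and the share is 52.6% for KRTAP2-4 and 63.8% for KRTAP2-1. No source used here says how reads that match several copies were assigned. The summed KRTAP2 value, which depends less on how reads were split among the 4 copies, was 29.8 ± 2.08 FPKM with 5aza and 3.94 ± 0.631 FPKM in control (SD, n = 3 each). For the coding transcript of KRTAP3-1, 0% of the 50-base windows occurred in a transcript of another gene.

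The KRTAP1 members and KRTAP3-2 were at or close to 0 in both groups. KRTAP1-5 (ENSG00000221852, 41026026 to 41027202) had 0, 0.150 and 0.195 FPKM with 5aza, and was listed at 0 in all 3 control libraries. KRTAP1-1 (ENSG00000188581, 41040559 to 41041461) had 0, 0.0567 and 0.0574 FPKM with 5aza, against 0, 0 and 0.0624 FPKM in control. In both genes 1 5aza library was listed at 0, so the groups overlapped. KRTAP3-2 (ENSG00000212900, 40999193 to 40999894), the nearest gene with values to KRTAP3-1 within its family, had 0, 0 and 0.0779 FPKM with 5aza, against 0, 0 and 0.168 FPKM in control. In KRTAP3-2 the highest value was again a control library. Single low values such as these may be a fragment or a few, since the depth behind them is unknown.

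Of the 7 members, 2 passed the filter on low values and 5 did not, and both that passed were higher with 5aza, beside 10.6% of all tested genes that rose and 23.7% that changed. The groups did not overlap, with 5aza higher, in 3 members, KRTAP3-1, KRTAP2-3 and KRTAP2-1, against 21.3% of all identifiers with 5aza higher and 38.5% in either direction. Because the members were chosen on this contrast, nothing is read from these counts. Leaving out each library in turn, the log2 difference stayed between 5.14 and 5.52 for KRTAP3-1 and between 2.86 and 3.08 for KRTAP2-3.

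**Figure D2:**
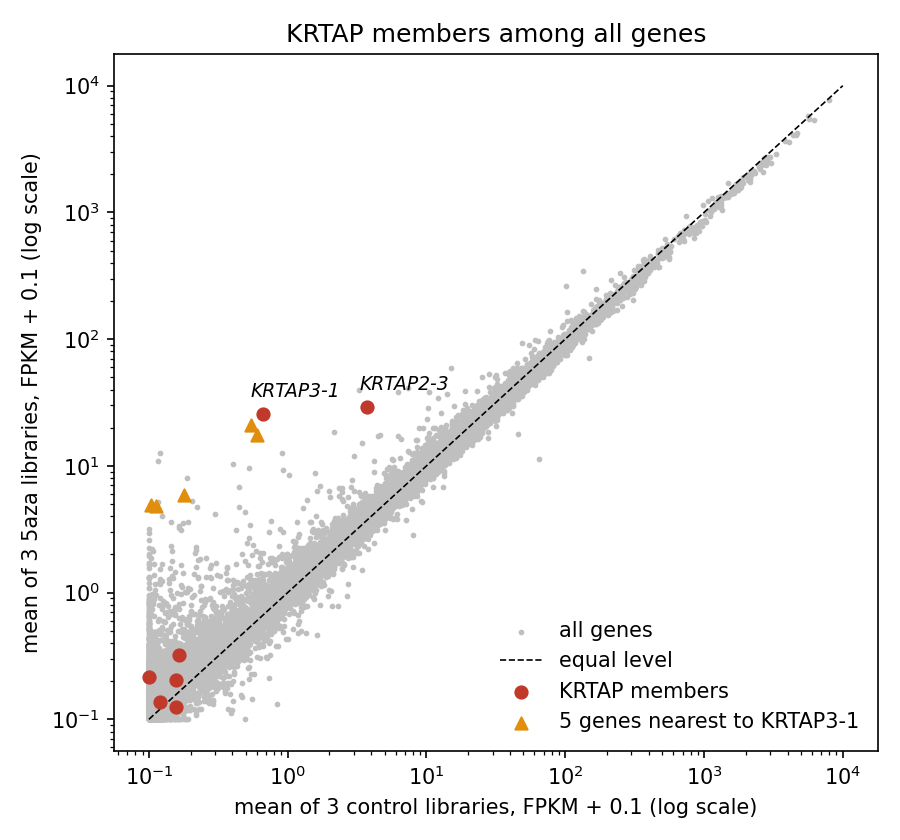
Mean FPKM + 0.1 of the 3 5aza libraries (vertical) against that of the 3 control libraries (horizontal), both on log scales, for all genes (grey), the 7 members (red) and the 5 genes nearest to KRTAP3-1 in pattern (orange). KRTAP3-1 and KRTAP2-3 lie well above the line of equal level, and the other 5 members lie at the low end of both axes.

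The 2 genes are not neighbours. Between the end of KRTAP3-1 and the start of KRTAP2-3 lie 39.9 kb and 5 KRTAP genes with values, namely KRTAP1-5, KRTAP1-3, KRTAP1-1, KRTAP2-1 and KRTAP2-2. The highest value of any of these 5 in any library was 0.364 FPKM, in KRTAP2-2. KRTAP3-2 lies 8.63 kb from KRTAP3-1, and KRTAP2-4 lies 5.00 kb from KRTAP2-3. Each of the 2 genes thus has a family relative close by that was listed near 0 FPKM, though the split between KRTAP2 copies is uncertain.

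The upstream sequences of these 2 genes and of the relative beside each are shown. They set a gene that was high with 5aza against one of its family that was not. For KRTAP2-3 and KRTAP2-4, which share sequence, the separate levels are uncertain. Each is the 250 bases before the RefSeq start (GRCh38.p14, minus strand, 5′ to 3′), with CpG, the dinucleotide that DNA methyltransferases methylate, in capitals. KRTAP3-1 is from chr17:41009129-41009378, KRTAP3-2 from chr17:40999907-41000156, KRTAP2-3 from chr17:41060115-41060364 and KRTAP2-4 from chr17:41065880-41066129.
KRTAP3-1: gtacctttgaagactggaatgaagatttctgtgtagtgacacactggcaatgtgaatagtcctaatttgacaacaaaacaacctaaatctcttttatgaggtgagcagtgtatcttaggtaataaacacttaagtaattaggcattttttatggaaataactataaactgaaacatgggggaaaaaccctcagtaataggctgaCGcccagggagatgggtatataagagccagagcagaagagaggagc
KRTAP3-2: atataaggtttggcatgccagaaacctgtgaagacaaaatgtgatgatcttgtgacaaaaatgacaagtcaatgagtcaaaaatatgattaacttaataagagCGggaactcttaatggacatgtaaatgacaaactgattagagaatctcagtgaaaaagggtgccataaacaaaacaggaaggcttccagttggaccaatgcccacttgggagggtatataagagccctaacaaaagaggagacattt
KRTAP2-3: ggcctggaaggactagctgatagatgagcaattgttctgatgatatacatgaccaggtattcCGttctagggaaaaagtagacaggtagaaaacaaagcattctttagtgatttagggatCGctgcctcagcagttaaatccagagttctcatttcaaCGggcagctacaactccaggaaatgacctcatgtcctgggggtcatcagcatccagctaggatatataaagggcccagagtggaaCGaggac
KRTAP2-4: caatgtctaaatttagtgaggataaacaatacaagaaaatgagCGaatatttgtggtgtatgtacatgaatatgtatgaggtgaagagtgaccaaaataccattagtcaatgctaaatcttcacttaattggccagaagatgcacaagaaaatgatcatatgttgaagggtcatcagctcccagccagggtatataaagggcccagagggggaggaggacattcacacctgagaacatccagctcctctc

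All 8 members had an entry by symbol among the RefSeq upstream sequences, and all 8 entries were poor in CpG. For KRTAP3-3 alone, the bases at the RefSeq start were not found in its GENCODE 29 transcript, so its window is uncertain. KRTAP2-3 held 4 CpG, KRTAP2-1 held 3, KRTAP1-1 and KRTAP1-5 held 2 each, and KRTAP3-1, KRTAP3-2, KRTAP3-3 and KRTAP2-4 held 1 each. Over 35116 promoters of the same length the median was 11 CpG, and 34.3% held 4 or fewer. KRTAP3-1 and KRTAP3-2 thus had the same number of CpG in this window, at 25.7 and 0.0260 FPKM with 5aza. In the other printed pair, KRTAP2-3 held more CpG than KRTAP2-4, at 29.2 and 0.106 FPKM with 5aza, values that are uncertain between these near copies. Whether the number of CpG has a part in these levels was not tested. The aligned upstream bases were 64.8% identical between KRTAP3-1 and KRTAP3-2, and 75.4% identical between KRTAP2-3 and KRTAP2-4. Between KRTAP3-1 and KRTAP2-3, which are of different families, 60.5% were identical, so the 64.8% is little above that. The letters say nothing of methylation, which was not measured in the table used here.

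Motifs were searched in the same 250 bases on both strands. The run TATATAA, chosen after the sequences were seen, occurred in all 4 printed sequences and in KRTAP1-5 and KRTAP2-1, against 2.42% of all promoters. It began 30 bases before the start in KRTAP3-1 and in KRTAP2-3, 33 bases before it in KRTAP3-2 and 60 bases before it in KRTAP2-4. The usual TATA box letters, TATAAA, occurred in every member but KRTAP3-2 and KRTAP3-3, against 10.7% of all promoters. In KRTAP2-3, KRTAP2-4, KRTAP2-1 and KRTAP1-5 a match begins 2 bases into the longer run, so the matches overlap there. In KRTAP3-1 the only TATAAA match began 89 bases before the start, apart from the longer run. CTTTGAA, the LEF1 motif of hair keratin promoters, occurred in KRTAP3-1 and KRTAP1-5, against 3.80% of all promoters. TGAGTCA, of AP-1, occurred in KRTAP3-2, which was near 0 in both groups, against 4.2% of all promoters. CCAAT occurred in KRTAP3-2, KRTAP2-4, KRTAP2-1, KRTAP1-1 and KRTAP1-5, against 32.0% of all promoters. All of these matches are letters in a window and no more.

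**Figure D3:**
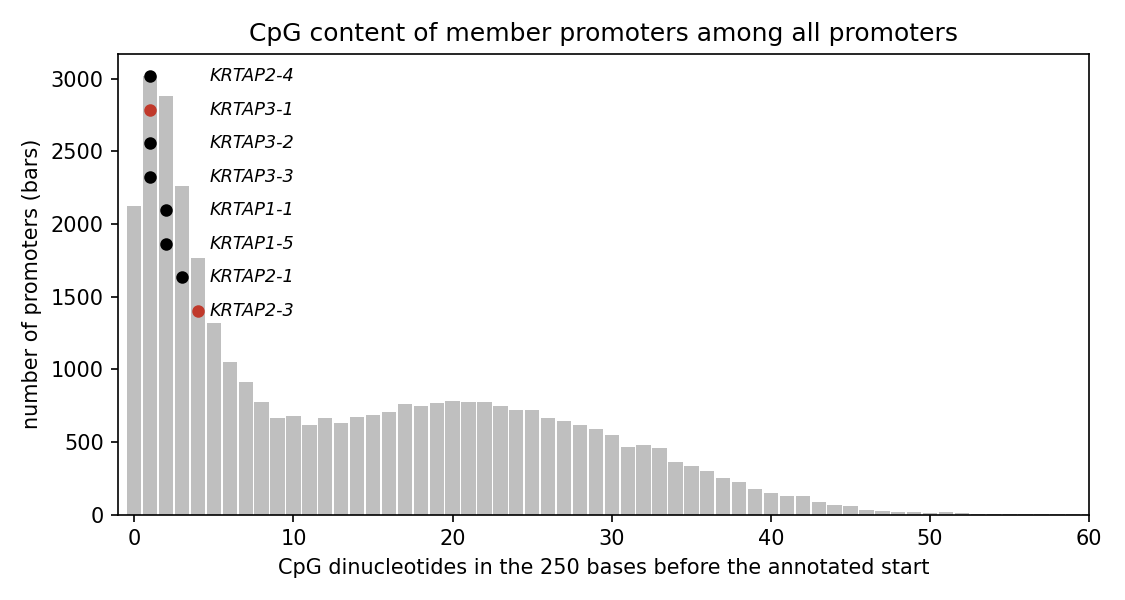
Number of promoters (bars, vertical) by the count of CpG in the 250 bases before the annotated start (horizontal), with the 8 members marked by points at their count and KRTAP3-1 and KRTAP2-3 in red; the height of a point has no meaning. The members lie between 1 and 4 CpG, whereas the median promoter holds 11.

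GENCODE 29 annotates 2 transcripts of KRTAP3-1. One is the coding transcript of 1 exon, from 41008521 to 41009114. The other, a non-coding transcript of 3 exons, starts 10.2 kb further upstream, at 41019324. KRTAP2-3 has 1 annotated transcript. The deposited values are per gene, so the start from which the KRTAP3-1 fragments came was not analysed here.

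No other KRTAP gene reached such levels. Of 86 further KRTAP genes listed, on chromosome 17 and elsewhere, 16 had values and 0 passed the filter on low values. Their highest value in any library was 1.77 FPKM, for KRTAP4-7 in control replicate 1. KRTAP4-7 had 0.495, 0.369 and 0.765 FPKM with 5aza, against 1.77, 0.308 and 0.298 FPKM in control, so that 1 control library was above all others. KRTAP4-6 had 0.822, 0.276 and 0.334 FPKM with 5aza, against 0.290, 0.244 and 0.122 FPKM in control, and KRTAP7-1, of chromosome 21, 0.0851, 0 and 0.509 FPKM with 5aza, against 0 in all 3 control libraries. Both overlapped between groups or had a 5aza library at 0. KRTAP2-2, between KRTAP2-1 and KRTAP2-3, had 0.272, 0.364 and 0.361 FPKM with 5aza, against 0.0971, 0.103 and 0.309 FPKM in control.

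The groups overlapped in all 16 of these genes. The other 13, beside KRTAP4-7, KRTAP4-6 and KRTAP7-1, were KRTAP1-3, KRTAP2-2, KRTAP4-1, KRTAP4-8, KRTAP4-9, KRTAP4-12, KRTAP4-16, KRTAP5-1, KRTAP5-2, KRTAP5-7, KRTAP5-9, KRTAP5-10 and KRTAP17-1. Each had at most 0.364 FPKM in any library. The summed FPKM of all 23 KRTAP genes with values was 57.5, 57.2 and 59.1 with 5aza, against 7.67, 4.71 and 5.68 in control. KRTAP3-1 and KRTAP2-3 together made up 94.0% to 95.3% of it with 5aza, against 65.2% to 73.7% in control. Without these 2 genes the KRTAP sum was 2.70 to 3.56 FPKM with 5aza, against 1.24 to 2.67 FPKM in control, and the ranges did not overlap by a narrow margin.

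Genes within 500 kb of the members show what the wider region did, by a choice on position alone. Of 32 such genes with values that are no members, 12 were tested, 8 rose, 0 fell and 4 did not pass, where 10.6% of all tested genes rose. The median log2 fold change of the 12 was 0.40, against -0.01 over all tested genes. Of the 12, 3 passed the filter through their 5aza libraries alone, namely KRT12, KRT13 and KRT32, so their rise is partly fixed by that choice. Without 5aza replicate 1 the count of 8 was 6, and KRT32 and KRT15 no longer passed. The count was also 6 with a filter of 1 FPKM, and 9 with the replicate block. It was 7 under quantile normalization and without control replicate 1 or control replicate 2, and stayed at 8 under the other alternatives.

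All but 1 of the neighbours that rose were keratin genes, as were most of the neighbours tested, so this says little beyond their position. KRT12, a keratin of the corneal epithelium, had 0.895, 0.944 and 0.768 FPKM with 5aza, against 0, 0.0159 and 0 FPKM in control. Its log2 fold change was 3.20 with the pseudocount of 0.1 and 5.995 with 0.01, where that of KRTAP3-1 was 5.538. KRT20, a keratin of intestinal epithelium, rose to 3.07 ± 0.0303 FPKM, against 0.774 ± 0.173 FPKM in control (log2 fold change 1.88, limma adjusted p = 4.08e-04). KRT23, the nearest tested gene on the KRTAP3 side, had 15.9, 14.9 and 17.1 FPKM with 5aza, against 9.17, 8.07 and 8.04 FPKM in control (log2 fold change 0.91). On the other side, KRT13, a keratin of mucosal stratified epithelia, averaged 1.32 FPKM with 5aza and 0.260 FPKM in control, and KRT19, of simple epithelia, rose to 936 FPKM with 5aza, against 740 FPKM in control. TNS4, a focal adhesion protein gene and the exception, had 24.3, 22.9 and 24.9 FPKM with 5aza, against 17.1, 18.6 and 20.1 FPKM in control. KRT15, a keratin of basal epithelial cells, averaged 5.18 FPKM with 5aza and 3.81 FPKM in control (limma adjusted p = 0.0167), and its call was lost without 5aza replicate 1, control replicate 1 or control replicate 2.

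The 4 that did not pass lay on the same side as KRT20. KRT10 averaged 30.8 FPKM with 5aza and 35.7 FPKM in control (limma adjusted p = 0.0519), and SMARCE1, a chromatin remodelling subunit, 83.3 FPKM with 5aza and 89.4 FPKM in control. KRT222 averaged 4.30 FPKM with 5aza and 4.32 FPKM in control, and KRT10-AS1 averaged 29.3 FPKM with 5aza and 28.6 FPKM in control. Directly beside the members, KRT40 and KRT39 were under the filter, at means of 0.0815 and 0.111 FPKM with 5aza, against 0.0163 and 0.0649 FPKM in control. The 5 nearest genes with values on the other side were KRTAP4-7, KRTAP4-8, KRTAP4-16, KRTAP4-9 and KRTAP4-12, which all overlapped between groups.

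**Figure D4:**
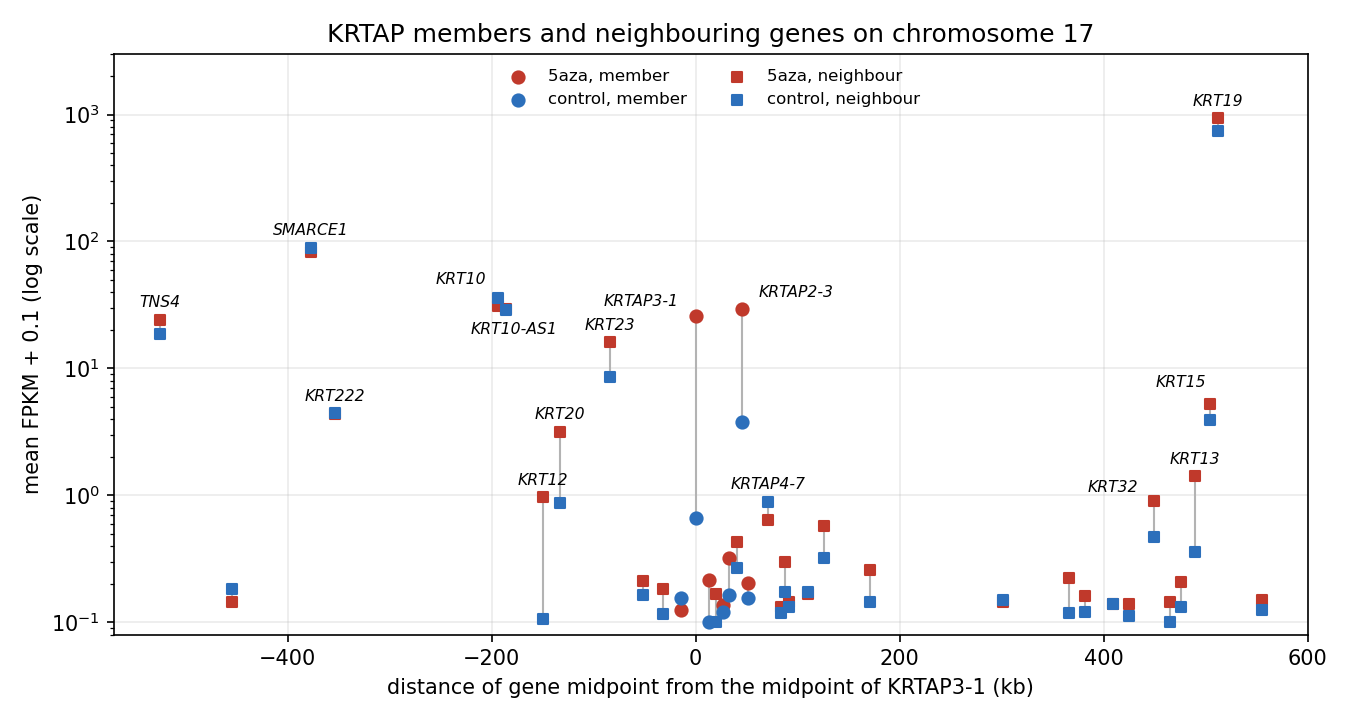
Mean FPKM + 0.1 on a log scale for the 7 members (circles) and 32 neighbouring genes (squares), with 5aza in red and control in blue, by the distance of each gene's midpoint from that of KRTAP3-1 in kb. KRTAP3-1 and KRTAP2-3 rise out of a stretch of genes under 1 FPKM in both groups, and the more distant keratin genes KRT12, KRT20, KRT23 and KRT13 are higher with 5aza.

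Hair keratins, the filament proteins that keratin-associated proteins bind, stayed low. Of 17 listed, 13 had values and 2 were tested, KRT81 and KRT32, and both rose, against 10.6% of all tested genes. KRT81, a keratin of the hair cortex, had 1.03, 1.01 and 1.04 FPKM with 5aza, against 0.258, 0.0522 and 0.104 FPKM in control (log2 fold change 2.34, SE 0.33, limma adjusted p = 0.00291). KRT32, a keratin of the hair cuticle, had 0.989, 0.690 and 0.738 FPKM with 5aza, against 0.399, 0.344 and 0.357 FPKM in control (log2 fold change 0.94, limma adjusted p = 0.0162). Both passed the filter through their 5aza libraries alone, so the count of 2 is partly fixed by that choice. The KRT32 call was lost under quantile normalization (adjusted p = 0.0952) and when either 5aza replicate 1 (adjusted p = 0.0529) or control replicate 2 (adjusted p = 0.0509) was left out. KRT81 shares 44.6% of its 50-base windows with other hair keratin genes, so its value is uncertain.

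The other 11 hair keratin genes did not reach 0.2 FPKM in any library. KRT31, KRT35 and KRT34, defining keratins of the hair cortex and picked for that role, averaged 0.0615, 0.0451 and 0.124 FPKM with 5aza. Their control means were 0.0200, 0 and 0.0173 FPKM, and the groups overlapped in KRT31 and KRT34. KRT83 and KRT37, alone of the 11, had lower means with 5aza. These were 0.00526 and 0.0382 FPKM, against 0.0168 and 0.0406 FPKM in control. Over the 13 genes, the summed level was 2.34 to 2.78 FPKM with 5aza, against 0.687 to 0.963 FPKM in control. With 5aza this sum was well under the level of KRTAP3-1 or KRTAP2-3 alone, while in control it lay between the means of the 2 genes.

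Regulators and structural genes of the hair follicle changed by less than 2-fold where they passed the test. Of 36 listed, 33 had values, 22 were tested, 7 rose, 1 fell and 14 did not pass, against 10.6% of all tested genes that rose and 23.7% that changed. The median log2 fold change of the 22 was 0.09, against -0.01 over all tested genes. HOXC13, the homeobox factor that activates hair keratin genes, had 2.74, 1.89 and 2.06 FPKM with 5aza, against 3.32, 3.30 and 2.67 FPKM in control (log2 fold change -0.47, limma adjusted p = 0.0695). LEF1, a transcription factor of Wnt signalling in the hair follicle, had 0.0386, 0.159 and 0.0228 FPKM with 5aza, and was listed at 0 in all 3 control libraries. Both were picked after their values were seen, for their role at hair keratin genes.

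The largest rises in the list were of PADI3, S100A2, MSX1 and S100A3. PADI3, which deiminates hair proteins, had 1.92, 2.05 and 2.52 FPKM with 5aza, against 1.05, 1.00 and 1.24 FPKM in control (log2 fold change 0.91). MSX1, a homeobox factor, rose to 162 FPKM with 5aza, against 103 FPKM in control (log2 fold change 0.65, limma adjusted p = 5.47e-06). S100A2 rose to 19.6 FPKM with 5aza, against 11.3 FPKM in control. S100A3, a calcium-binding protein of the hair cuticle, rose to 6.73 FPKM with 5aza, against 4.56 FPKM in control, a call lost without 5aza replicate 3 (adjusted p = 0.0602). BMP4, a signalling protein of the follicle, fell to 125 FPKM with 5aza, against 141 FPKM in control (log2 fold change -0.18), a call lost with libraries scaled to the same FPKM sum (adjusted p = 0.0632). The count of 8 calls was 5 without 5aza replicate 3, control replicate 1 or control replicate 2.

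Markers of epidermal keratinocytes, the other skin cell lineage, were also looked at. Of 18 listed, 15 had values, 5 were tested, 3 rose, 0 fell and 2 did not pass, against 10.6% of all tested genes that rose. LGALS7B, a galectin of stratified epithelium, rose to 9.23 FPKM with 5aza, against 0.831 FPKM in control (log2 fold change 3.38, limma adjusted p = 1.99e-04). It shares 84.6% of its 50-base windows with LGALS7, so its value is uncertain. SFN, stratifin, rose to 167 FPKM with 5aza, against 134 FPKM in control, and the third gene was KRT15. KRT5 and KRT14, which define basal keratinocytes, stayed under 0.4 FPKM in every library. The summed level of the list was 217 to 223 FPKM with 5aza, against 176 to 183 FPKM in control, and most of it was SFN. Whether this has a part in the KRTAP values was not tested.

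Among intestinal and simple epithelial genes, 7 of 10 were tested, 5 rose, 1 fell and 1 did not pass, against 10.6% of all tested genes that rose and 13.1% that fell. KRT20 and KRT19 had already been counted among the neighbours. The largest rises were of KRT20 and of CDH1, E-cadherin, which rose to 16.2 FPKM with 5aza, against 12.7 FPKM in control. KRT19 and KRT18 followed, and KRT18 rose to 622 FPKM with 5aza, against 520 FPKM in control. EPCAM fell to 153 FPKM with 5aza, against 166 FPKM in control, a call lost under 7 alternatives. Of 10 fibroblast and blood markers, 9 had values, 2 were tested, 1 rose and 1 did not pass, beside the same 10.6%. COL1A1 rose to 6.71 FPKM with 5aza, against 4.67 FPKM in control, and PDGFRA averaged 25.7 FPKM with 5aza and 26.7 FPKM in control. The summed level of these markers was 31.7 to 33.7 FPKM with 5aza, against 31.4 to 31.7 FPKM in control. The 7 markers with values that were not tested stayed under 0.5 FPKM in every library. Among them, PTPRC, CD3E, DCN and LUM stayed under 0.2 FPKM. CD14 was higher, at up to 0.426 FPKM in 5aza replicate 2 and 0.220 FPKM in control replicate 3.

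**Figure D5:**
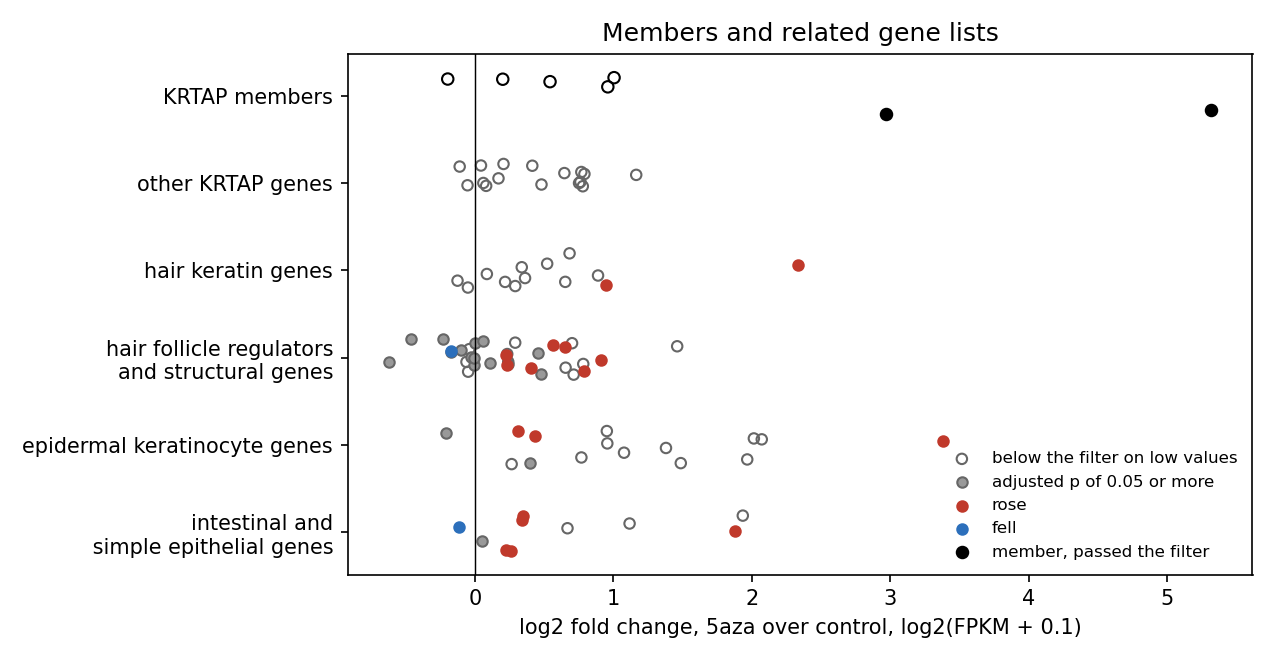
Log2 fold change of 5aza over control on log2(FPKM + 0.1) for the members and 5 related lists; each point is a gene, open points are under the filter on low values, and points are spread vertically at random within a list. KRTAP3-1 (5.32) and KRTAP2-3 (2.97) lie to the right of every hair keratin and follicle gene shown. In the epidermal list, LGALS7B (3.38) lies to the right of KRTAP2-3. With a pseudocount of 0.01, KRT81 was at 3.07 and KRTAP2-3 at 3.00.

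The genes whose pattern was most like that of KRTAP3-1 were not hair genes. By the Euclidean distance between log2(FPKM + 0.1) values over the 6 libraries, each centred on its mean, the nearest tested genes with a symbol were CXCL1, RFPL4B, DAZL, CXCL8 and ZFP42, at distances of 0.280, 0.416, 0.548, 0.642 and 0.696. CXCL1, a neutrophil chemokine, had 20.3, 21.4 and 20.9 FPKM with 5aza, against 0.539, 0.321 and 0.480 FPKM in control. DAZL, which binds RNA in germ cells, averaged 4.77 FPKM with 5aza and 0.00415 FPKM in control. None of the 5 lies on chromosome 17. The likeness of RFPL4B, DAZL and ZFP42, which were close to 0 in control, depends on the pseudocount: with 0.01 their log2 fold changes were 7.85, 8.51 and 6.08, and with 1 they were 2.49, 2.52 and 2.65, where those of KRTAP3-1 were 5.54 and 4.10. The measure describes 6 libraries in 2 groups, so it rests mainly on the size of the difference between groups.

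Genes used as controls differed little: ACTB averaged 1606 FPKM with 5aza and 1728 FPKM in control (limma adjusted p = 0.0760), and GAPDH 3644 FPKM with 5aza and 3812 FPKM in control (limma adjusted p = 0.228). In both genes every 5aza library lay below every control library. With libraries scaled to the same FPKM sum, the log2 fold changes were -0.026 for ACTB and 0.015 for GAPDH. Without that scaling the ACTB log2 fold change was -0.11, and ACTB passed the test without control replicate 3 (limma adjusted p = 0.0479).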

How the data were processed

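RNA-seq values of 6 HCT116 libraries were taken from 1 table of FPKM per gene deposited by the authors. Per the submitters' processing notes, tools named for these samples were STAR 2.5.1b, HTSeq 0.6.0 and also DESeq2 1.10.1. The same notes name 2 builds, GRCh38 and also Rnor_6.0, and say of neither tools nor builds what each was used for. No source used here names the program that made the FPKM values, the strand setting or the read length. Columns were matched to samples through their descriptions. Of the 11 identifiers that occur in more than 1 row, only the row of higher mean was used. Of 15451 Ensembl identifiers, 15421 matched a symbol and 15440 a GENCODE 29 position on GRCh38.

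Values were used as log2(FPKM + 0.1), which understates the change of low genes, with no further scaling. For genes of at least 0.5 FPKM in at least 3 libraries, limma 3.58.1 (R 4.3.3) gave two-sided p-values by eBayes with a variance trend. Benjamini-Hochberg adjustment ran over all 12360 of them, and the script was first tested on simulated data. Lists are described by counts and medians. They overlap, and KRT15, KRT19, KRT20 and KRT32 were counted as neighbours that rose and again in another list. Transcript windows and alignments used Biopython 1.88 in Python 3.11.15, and upstream sequences are from RefSeq. By rule, named genes were all members, every other KRTAP gene, the 5 nearest neighbours on each side and the neighbours that passed. The rule also took up to 4 rises and 4 falls of each list, the 5 genes nearest to KRTAP3-1, and ACTB and GAPDH. Further genes were named outside this rule, for their role or their values. Among them were HOXC13, LEF1, KRT31, KRT34, KRT35, KRT5, KRT14, KRT6B, KRT17, TP63, PTPRC, CD3E, DCN, LUM, PDGFRA, SMARCE1 and KRT222. The members and lists were chosen with earlier results of these data known. Alternatives changed the pseudocount, filter, scaling, variance trend, repeated rows, block and libraries.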

Additional observations from a re-analysis of the deposited data

How the results depend on the processing

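KRTAP3-1 and KRTAP2-3 were higher with 5aza under all 15 alternatives run. With a pseudocount of 1 their log2 differences were 4.10 and 2.70, since a larger pseudocount shrinks the change of low genes. Leaving out 1 library, the KRTAP3-1 difference ranged from 5.14 to 5.52 and that of KRTAP2-3 from 2.86 to 3.08. Calls over all genes numbered 2929, and 1877 to 2599 without 1 library, with 1877 without 5aza replicate 3 and 1880 without control replicate 2. Hair keratin calls numbered 1 with a filter of 1 FPKM or quantile normalization, and 1 to 2 without 1 library. Follicle calls numbered 5 to 7 without 1 library. Epidermal keratinocyte calls numbered 8 and fibroblast and blood marker calls 3 with no filter on low values. Falls over all genes numbered 776 with libraries scaled to the same FPKM sum, 1041 with no variance trend, and 940 to 1521 without 1 library; rises numbered 2340 with that scaling. The labels do not say that a replicate number marks a shared culture, and deviations of same-numbered libraries correlated at 0.048, 0.077 and 0.068, so the numbers were not taken as pairs. With the replicate block 2932 genes and 5 epidermal keratinocyte genes were called. The median of all tested genes moved by under 0.1 (log2) under every alternative. Depth is unknown, so the members near 0 FPKM cannot be ranked among themselves.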

Other observations

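Several epidermal keratinocyte genes lay under the filter on low values and were not tested. KRT6B, a keratin of hair follicle and wounded epidermis, had 0.419, 0.248 and 0.364 FPKM with 5aza, against 0.0126, 0 and 0 FPKM in control. KRT17, which is also used in the hair follicle, had 0.328, 0.641 and 0.276 FPKM with 5aza, against 0.0232, 0 and 0.0470 FPKM in control. TP63, the transcription factor of stratified epithelia, had 0.227, 0.142 and 0.332 FPKM with 5aza, against 0.0150, 0.00726 and 0.0569 FPKM in control. In these 3 genes, picked after their values were seen, every 5aza library was above every control library. The groups did not overlap, with 5aza higher, in 10 of the 15 keratinocyte genes with values, against 21.3% of all identifiers. Most of these 10 lay under the filter, whereas the 21.3% covers genes of every level. Over the whole table, 755 to 801 identifiers were listed at 0 in each 5aza library, against 1663 to 1761 in each control library. The count is therefore not read as particular to keratinocyte genes.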
